A study of Caenorhabditis elegans with 12 samples.

Results

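The 276 genes described here are those of 45410 in the count tables whose name is *nhr-* followed by a number, the nuclear hormone receptor (NHR) genes of *Caenorhabditis elegans*. Their RNA was measured by RNA-seq in mid-embryos that carried an allele of *set-2*, which encodes a histone H3 lysine 4 (H3K4) methyltransferase, and in the wild-type strain N2. The 12 libraries came from 2 experiments with 3 libraries of each genotype. In experiment 1, *set-2(tm1630)*, a deletion at the 5′ end of the gene that takes away its start codon, was set against N2. In experiment 2, *set-2(zr2012)*, which carries a CRISPR-made amino acid substitution in the catalytic SET domain, was set against its own N2. In all 4 groups young adults grown at 20°C were treated with hypochlorite and RNA was taken from whole embryos 4 h later. Each mutant group is 1 strain, so the allele and anything else that differs between that strain and N2 cannot be told apart.

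Nuclear hormone receptors are transcription factors with a zinc-finger DNA-binding domain and, usually, a ligand-binding domain that can take up small lipophilic molecules such as sterols and fatty acids. Nematodes have far more of them than insects or vertebrates. Most *C. elegans* members descend from an ancestor related to the vertebrate receptor HNF4, and only a small part of the family has clear orthologues in other animals. Receptors with known roles act in embryonic patterning, moulting, fat metabolism, the response to diet and the response to toxins.

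The libraries held between 14651380 and 53080992 counts, and NHR genes took between 0.337 and 0.573% of them. *nhr-62* reached 11834 reads in a library, the highest count of any member, while the median member reached at most 297 reads and 98 members passed 1000. 33 members were listed at 0 in all 12 libraries, among them *nhr-6*, *nhr-14*, *nhr-23*, *nhr-49*, *nhr-68*, *nhr-85* and *nhr-114*, and 24 others never passed 9 reads. A listed 0 cannot be read as absence of RNA: *act-1*, an actin gene, was also at 0 throughout. The zeros moved with the number of annotated transcripts. By RefSeq's annotation 28 of 93 protein-coding members with 2 or more transcripts were at 0 (30.1%), against 5 of 171 with 1 transcript (2.92%), and over all protein-coding genes these shares were 31.9 and 3.15%. The part of counting in these zeros was not tested. Members that reached 10 counts in 3 or more of an experiment's 6 libraries were tested, 193 in *set-2(tm1630)* and 201 in *set-2(zr2012)*, 189 of them in both.

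The count of *set-2* does not check the labels, since a 5′ deletion leaves part of the gene in place and a substitution all of it. It had 3.09, 0.810 and 2.79 CPM in *set-2(tm1630)*, against 0.0458, 0.280 and 0.813 CPM in N2 (log2 fold change 2.48, SE 0.86, edgeR adjusted p = 0.0589), and 0.515, 0.423 and 0.367 CPM in *set-2(zr2012)*, against 0.303, 0.565 and 0.408 CPM in N2 (log2 fold change 0.045, SE 0.33, edgeR adjusted p = 0.939), and neither difference passed the test. Markers of stage differed between the *set-2(tm1630)* group and its N2. Of 16 early-embryo genes tested, 13 were higher in *set-2(tm1630)* and 0 lower, with summed levels of 977 to 1295 CPM in the mutant libraries and 57.9 to 175.6 CPM in N2, while *pie-1* and *mex-3* were at 0. Of 9 genes of differentiated tissue tested, 4 were lower (*myo-2*, *myo-3*, *rab-3* and *unc-54*) and 0 higher, with sums of 2487 to 2579 CPM in *set-2(tm1630)* and 4929 to 6297 CPM in N2, and 6 others at 0. In *set-2(zr2012)* 0 of these early genes (0 at an unadjusted p under 0.05 with edgeR, 0 called by DESeq2) and 0 of these tissue genes (1 at an unadjusted p under 0.05 with edgeR, 0 called by DESeq2) passed the test, but N2 replicate 3 of experiment 2 stood apart with an early sum of 759.9 CPM, where the mutant libraries held 152 to 184 CPM and the lowest N2 library 137 CPM. Summed adult genes stayed at or below 3.65 CPM in all 12 libraries. The part of stage in the NHR results was not tested, and in whole embryos fewer cells of a type and less RNA per cell cannot be told apart.

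In *set-2(tm1630)*, most NHR genes that changed were lower. With edgeR (quasi-likelihood test, Benjamini-Hochberg adjusted p under 0.05) 47 of 193 members fell (24.4%), where 16% of all 16332 genes tested fell, and 11 rose (5.70%), where 14.4% of all genes rose. The other 135 did not pass. The log2 fold changes of the members that fell ran between -2.92 and -0.87, those of the members that rose between 1.37 and 3.94. The median member had a log2 fold change of -0.68 (interquartile range -1.13 to -0.15), against -0.21 (-1.09 to 0.76) for all genes tested. All 3 mutant libraries were below all 3 N2 libraries for 92 members (47.7%, 24.6% of all genes) and above them for 20 (10.4%, 25.8% of all genes). Summed over the family, levels were 3601, 3335 and 3557 CPM in *set-2(tm1630)*, against 4374, 5951 and 4857 CPM in N2, with no overlap. With 3 libraries against 3, an exact two-sided permutation test of such a sum cannot give a p below 0.1, so none is given.

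The number of calls changed with single libraries. Without N2 replicate 3, 75 of 191 members tested were lower and 19 higher, where 26.3 and 23.5% of all genes were. Without N2 replicate 2, 19 of 192 were lower and 8 higher, where 8.84 and 9.71% of all genes were. The share of members lower without N2 replicate 2 was thus close to that of all genes. Leaving out any 1 of the *set-2(tm1630)* libraries left *nhr-2* as the only member called higher, and at most 1 called lower, *nhr-62*. Over all genes the calls also dropped in these fits, to between 0.889 and 1.40% lower and between 3.86 and 4.45% higher. With 189 or 190 members tested, the share of members called lower was below that of all genes in each of these fits. Over the 6 fits the median log2 fold change of the members stayed between -0.73 and -0.64.

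In *set-2(zr2012)* the changes were smaller and again mostly downward. 23 of 201 members fell (11.4%, 4.74% of all 16892 genes tested) and 4 rose (1.99%, 5.71% of all genes), and 174 did not pass. Members that fell had log2 fold changes of -1.95 to -0.43, and those that rose 0.45 to 0.70. The median was -0.34 (interquartile range -0.68 to -0.01), against -0.08 (-0.45 to 0.29) for all genes. All 3 mutant libraries were below all 3 N2 libraries for 66 members (32.8%, 18.1% of all genes) and above them for 21 (10.4%, 18.9% of all genes). Summed family levels were 4663, 4587 and 4573 CPM in *set-2(zr2012)* and 5350, 5313 and 4893 CPM in N2, with no overlap.

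The number of calls in *set-2(zr2012)* also changed with every library left out. N2 replicate 3, the library with the high early-embryo sum, lay below both other N2 libraries for 131 of 201 members. Without it 101 members were lower and 19 higher of 197 tested, where 32.5 and 30.7% of all genes passed. Leaving out any other library left 0 higher and at most 1 lower, *nhr-194*, while between 0.175 and 0.753% of all genes were higher and 0 and 0.175% lower. The median ranged between -0.37 and -0.29 over the 6 fits.

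**Figure D1:**
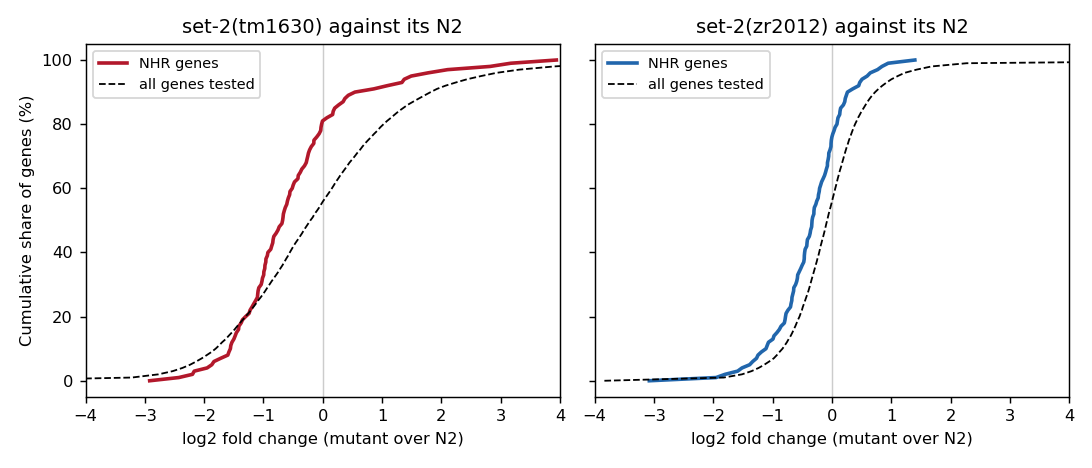
Cumulative share of genes (%) by log2 fold change, mutant over its N2, for NHR genes (coloured) and all genes tested (dashed), with *set-2(tm1630)* left and *set-2(zr2012)* right. The NHR curve reached 50% at -0.68 in *set-2(tm1630)* and at -0.34 in *set-2(zr2012)*, left of all genes at -0.21 and -0.08.

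**Figure D2:**
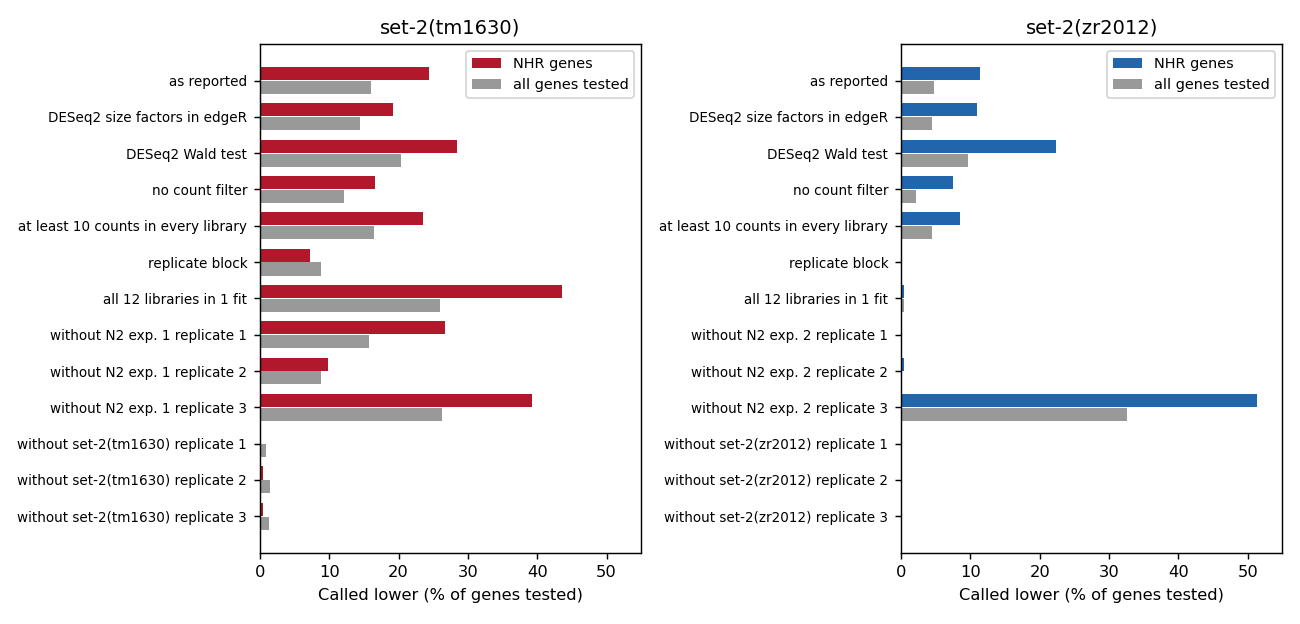
Share of NHR genes (coloured) and of all genes tested (grey) called lower, in percent, under each setting, with *set-2(tm1630)* left and *set-2(zr2012)* right. The shares fall near 0 in *set-2(tm1630)* when a mutant library is left out, and in *set-2(zr2012)* when any library other than N2 replicate 3 is left out.

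Among the 5 receptors listed for embryonic development, *nhr-2* and *nhr-67* rose in *set-2(tm1630)* and none fell. *nhr-2*, an early embryonic receptor needed for embryogenesis, had 47.9, 32.4 and 41.1 CPM in *set-2(tm1630)*, against 1.47, 0.637 and 5.71 CPM in N2. The groups did not overlap (log2 fold change 3.94, SE 0.77, edgeR adjusted p = 0.0111), and all 6 fits with 1 library left out kept the call, with log2 fold changes between 3.46 and 5.30. In experiment 2 it had 6.14, 4.45 and 4.62 CPM in *set-2(zr2012)*, against 3.09, 2.78 and 38.7 CPM in N2, where N2 replicate 3, the library with the early-embryo sum of 759.9 CPM, alone was high (log2 fold change -1.56, SE 1.02, edgeR adjusted p = 0.337). Without that library the log2 fold change was 0.77 with an adjusted p of 0.0030, a reversal of sign.

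*nhr-67* is the orthologue of *Drosophila* tailless and specifies the anchor cell of the gonad. It had 129.9, 91.2 and 108 CPM in *set-2(tm1630)*, against 35.5, 37.4 and 54.8 CPM in N2 (log2 fold change 1.37, SE 0.31, edgeR adjusted p = 0.0163), all mutant libraries above N2. In experiment 2 the order was the opposite, with 21.1, 19.6 and 17.6 CPM in *set-2(zr2012)*, against 29.9, 31.2 and 33.3 CPM in N2 (log2 fold change -0.70, SE 0.13, edgeR adjusted p = 0.0249), and again the groups did not overlap. The log2 fold change in *set-2(tm1630)* was between 1.25 and 1.59 over the 6 fits that left out 1 library, 3 of which kept the call (highest adjusted p = 0.0829), the call lapsing when any 1 of the mutant libraries was left out. In *set-2(zr2012)* only the fit without N2 replicate 3 kept it, with log2 fold changes of -0.74 to -0.61 (highest adjusted p = 0.146). The other 3 embryonic receptors passed in neither allele. *nhr-25*, an orthologue of FTZ-F1 with roles in epidermis and moulting, had 52.2, 30.0 and 41.4 CPM in *set-2(tm1630)*, against 49.2, 44.2 and 71.9 CPM in N2 (log2 fold change -0.42, SE 0.33, edgeR adjusted p = 0.348), and the groups overlapped. *nhr-40*, which acts in muscle development, had log2 fold changes of -1.18 (SE 0.63, edgeR adjusted p = 0.179) in *set-2(tm1630)* and 0.28 (SE 0.41, edgeR adjusted p = 0.663) in *set-2(zr2012)*, and *nhr-60*, of the seam cells, of -0.71 (SE 0.38, edgeR adjusted p = 0.184) and 0.13 (SE 0.17, edgeR adjusted p = 0.605).

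Of 11 conserved receptors, with orthologues in insects or vertebrates, 8 could be tested and 3 were at 0. In *set-2(tm1630)* *nhr-67* rose and *nhr-41*, *nhr-91* and *nhr-111* fell, while in *set-2(zr2012)* *nhr-41* rose and *nhr-67* fell. *nhr-41*, the orthologue of *Drosophila* DHR78, had 19.9, 12.3 and 18.8 CPM in *set-2(tm1630)*, against 74.5, 121 and 32.9 CPM in N2 (log2 fold change -2.16, SE 0.49, edgeR adjusted p = 0.0164). In the second experiment it had 237, 225 and 245 CPM in *set-2(zr2012)*, against 143, 147 and 144 CPM in N2 (log2 fold change 0.70, SE 0.086, edgeR adjusted p = 0.0103). It was thus below every N2 library with the deletion and above every N2 library with the substitution. In *set-2(tm1630)* the log2 fold change was between -2.53 and -1.67 over the 6 fits that left out 1 library, 3 of which kept the call (highest adjusted p = 0.0823), and in *set-2(zr2012)* it was between 0.69 and 0.76 over the 6 fits that left out 1 library, 1 of which kept the call (highest adjusted p = 0.0873), the kept fit being that without N2 replicate 3. *nhr-48*, related to the vertebrate vitamin D and pregnane X receptors, had log2 fold changes of -1.09 (SE 0.41, edgeR adjusted p = 0.0730) in *set-2(tm1630)* and 0.051 (SE 0.11, edgeR adjusted p = 0.773) in *set-2(zr2012)*, and *nhr-239*, at under 10 CPM in every library, of -0.24 (SE 0.50, edgeR adjusted p = 0.725) and 0.16 (SE 0.24, edgeR adjusted p = 0.672). *nhr-25* and *nhr-41* were the only moulting receptors tested, since *nhr-23* and *nhr-85* were at 0.

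*nhr-91*, an orthologue of vertebrate GCNF, had 38.3, 42.3 and 49.5 CPM in *set-2(tm1630)*, against 115, 187 and 58.1 CPM in N2 (log2 fold change -1.47, SE 0.43, edgeR adjusted p = 0.0354), and 197, 213 and 204 CPM in *set-2(zr2012)*, against 91.8, 95.7 and 172 CPM in N2 (log2 fold change 0.77, SE 0.25, edgeR adjusted p = 0.0963). The groups did not overlap in either experiment, and the second difference did not pass the test. In *set-2(tm1630)* only 1 of the 6 fits with a library left out kept the call (highest adjusted p = 0.150). *nhr-111* had the lowest log2 fold change of any member called in *set-2(tm1630)*, from few reads, with 0.213, 0.877 and 0.547 CPM in *set-2(tm1630)*, against 2.29, 7.83 and 1.77 CPM in N2 (log2 fold change -2.92, SE 0.77, edgeR adjusted p = 0.0266). It kept the call in 2 of 6 such fits (highest adjusted p = 0.114).

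Among receptors of lipid and energy metabolism, 5 of 9 could be tested and 1 fell in each allele. *nhr-62*, needed for the long life of animals on restricted diets, had 34.4, 36.6 and 35.8 CPM in *set-2(tm1630)*, against 113, 302 and 158 CPM in N2. Every mutant library lay below every N2 library (log2 fold change -2.42, SE 0.41, edgeR adjusted p = 0.00785). The log2 fold change was between -2.71 and -1.94 over the 6 fits that left out 1 library, 5 of which kept the call (highest adjusted p = 0.0504), that without mutant replicate 1 being the exception. In experiment 2 it had 48.6, 38.2 and 36.5 CPM in *set-2(zr2012)*, against 56.0, 57.9 and 69.2 CPM in N2 and did not pass (log2 fold change -0.57, SE 0.15, edgeR adjusted p = 0.0642). *nhr-13*, a partner of NHR-49, was the member that fell in *set-2(zr2012)*, at levels under 1 CPM (log2 fold change -1.95, SE 0.48, edgeR adjusted p = 0.0499). It had 4, 6 and 3 counts in *set-2(zr2012)* and 27, 15 and 15 counts in N2, so it entered the test only through the N2 libraries where it was high, and no fit with a library left out that could test it kept the call (highest adjusted p = 0.206). *nhr-80*, which works with NHR-49 on fatty acid desaturation, had 8.34, 7.29 and 8.29 CPM in *set-2(tm1630)*, against 4.49, 5.56 and 14.2 CPM in N2 (log2 fold change -0.022, SE 0.48, edgeR adjusted p = 0.976), so the groups overlapped. *nhr-10*, which acts in propionate metabolism, had log2 fold changes of 0.0015 (SE 0.27, edgeR adjusted p = 0.997) in *set-2(tm1630)* and -0.22 (SE 0.13, edgeR adjusted p = 0.297) in *set-2(zr2012)*, and *nhr-64* of -0.017 (SE 0.30, edgeR adjusted p = 0.971) and 0.035 (SE 0.12, edgeR adjusted p = 0.856). *nhr-66* was too low to test, and *nhr-49*, *nhr-68* and *nhr-114* were listed at 0.

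The receptors listed for detoxification, immunity and stress gave 0 calls of 4 tested in either allele (1 at an unadjusted p under 0.05 with edgeR, 0 called by DESeq2 in *set-2(tm1630)*, and 1 at an unadjusted p under 0.05 with edgeR, 1 called by DESeq2 in *set-2(zr2012)*). *nhr-8*, which acts in sterol and xenobiotic responses, had 47.8, 36.4 and 46.4 CPM in *set-2(tm1630)*, against 47.9, 56.6 and 61.9 CPM in N2 (log2 fold change -0.35, SE 0.27, edgeR adjusted p = 0.338). *nhr-57*, a gene induced by hypoxia through HIF-1, had 25, 26.1 and 24.9 CPM in *set-2(tm1630)*, against 36.6, 34.6 and 62.5 CPM in N2 (log2 fold change -0.82, SE 0.32, edgeR adjusted p = 0.0829). For both genes the groups did not overlap, but the differences did not pass. *nhr-86* had a log2 fold change of -0.21 (SE 0.34, edgeR adjusted p = 0.654) in *set-2(tm1630)* and 0.047 (SE 0.094, edgeR adjusted p = 0.757) in *set-2(zr2012)*, and *nhr-176* of -1.14 (SE 0.53, edgeR adjusted p = 0.131) and -0.86 (SE 0.22, edgeR adjusted p = 0.0567). *nhr-14* was at 0.

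Many of the larger changes in *set-2(tm1630)* fell on receptors without an assigned role here. *nhr-154* had 225, 169 and 188 CPM in *set-2(tm1630)*, against 62.2, 55.3 and 90.9 CPM in N2 (log2 fold change 1.48, SE 0.32, edgeR adjusted p = 0.0146). *nhr-232* had 54, 38.4 and 42.9 CPM in *set-2(tm1630)*, against 13.3, 6.50 and 21.2 CPM in N2 (log2 fold change 1.72, SE 0.44, edgeR adjusted p = 0.0246), and *nhr-39*, at far lower counts, 2.48, 1.82 and 2.10 CPM in *set-2(tm1630)*, against 0.641, 0.510 and 0.573 CPM in N2 (log2 fold change 1.90, SE 0.42, edgeR adjusted p = 0.0160). In each of these 3 the mutant libraries were above all N2 libraries. *nhr-165* had 1.55, 1.82 and 2.94 CPM in *set-2(tm1630)*, against 0.137, 0.127 and 0.536 CPM in N2 (log2 fold change 2.89, SE 0.67, edgeR adjusted p = 0.0181), and *nhr-38* 1.39, 1.21 and 1.27 CPM in *set-2(tm1630)*, against 0.641, 0.178 and 0.185 CPM in N2 (log2 fold change 2.02, SE 0.61, edgeR adjusted p = 0.0395). *nhr-181* had 4.98, 5.06 and 5.38 CPM in *set-2(tm1630)*, against 1.51, 1.22 and 2.66 CPM in N2 (log2 fold change 1.51, SE 0.43, edgeR adjusted p = 0.0335). The groups of these genes did not overlap. The 3 further members that rose, *nhr-169*, *nhr-255* and *nhr-262*, averaged under 20 reads per library and passed the count filter only through the mutant libraries, where they were high. They could be tested only in the 3 fits that left out an N2 library, so their calls had no check against the loss of a mutant library. Of the 6 genes given with values, *nhr-38* and *nhr-181* kept the call in 1 of 6 fits with a library left out, and *nhr-39*, *nhr-154*, *nhr-165* and *nhr-232* in 3, with adjusted p-values up to 0.138.

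Downward, *nhr-270* had 4.42, 8.43 and 5.73 CPM in *set-2(tm1630)*, against 27.9, 56.9 and 17.6 CPM in N2 (log2 fold change -2.47, SE 0.50, edgeR adjusted p = 0.0127). *nhr-101* had 23.8, 33.3 and 29.9 CPM in *set-2(tm1630)*, against 106, 135 and 66.9 CPM in N2 (log2 fold change -1.83, SE 0.34, edgeR adjusted p = 0.0103), and *nhr-52* 1.95, 1.08 and 2.48 CPM in *set-2(tm1630)*, against 11.2, 11.8 and 3.70 CPM in N2 (log2 fold change -2.26, SE 0.56, edgeR adjusted p = 0.0221). In these 3 genes N2 replicates 1 and 2 were the highest libraries, and no mutant library reached the lowest N2 library. *nhr-197* and *nhr-287*, which RefSeq holds as a pseudogene, fell by log2 fold changes of -2.19 and -2.18 at levels no higher than 2.11 CPM, calls kept in 1 of 6 and 2 of 6 fits with a library left out (highest adjusted p = 0.156 and 0.137). Without 1 of the mutant libraries, *nhr-270* and *nhr-101* had adjusted p-values of up to 0.0739 and 0.0711, *nhr-52* up to 0.104 with any library left out.

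**Figure D3:**
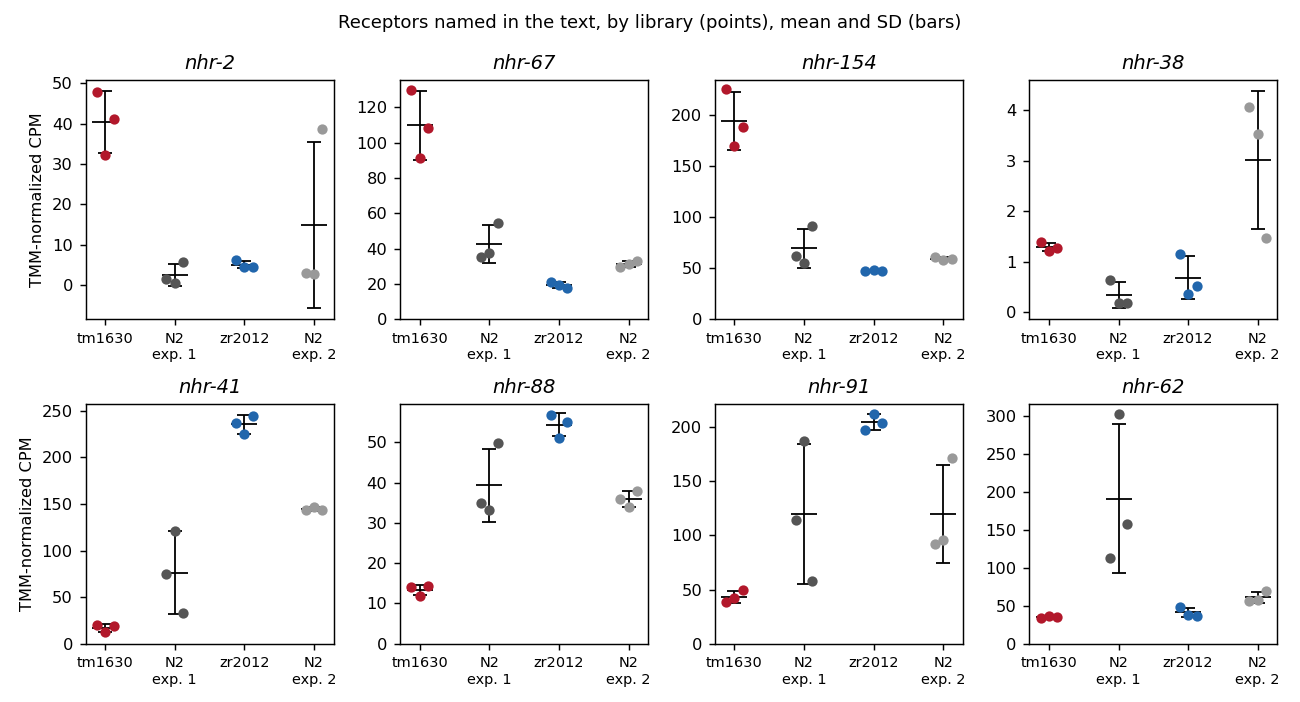
TMM-normalized CPM of 8 receptors in each library (points), with the mean and SD of the group's 3 libraries (bars), in the order *set-2(tm1630)*, N2 of experiment 1, *set-2(zr2012)*, N2 of experiment 2. CPM were normalized within each experiment. *nhr-2* was above its N2 in every *set-2(tm1630)* library, and in experiment 2 it was highest in N2 replicate 3, at 38.7 CPM. *nhr-41* and *nhr-91* were below their N2 in *set-2(tm1630)* and above their N2 in *set-2(zr2012)*.

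In *set-2(zr2012)* the 4 members that rose were *nhr-18*, *nhr-41*, *nhr-88* and *nhr-126*. *nhr-18* had 50.7, 52.3 and 54.5 CPM in *set-2(zr2012)*, against 39.1, 37.3 and 39.0 CPM in N2 (log2 fold change 0.45, SE 0.10, edgeR adjusted p = 0.0357), all mutant libraries above N2. Among those that fell, *nhr-190* had 10.9, 11.9 and 10.3 CPM in *set-2(zr2012)*, against 27.6, 29.4 and 21.8 CPM in N2 (log2 fold change -1.25, SE 0.16, edgeR adjusted p = 0.0117). *nhr-188* had 1.20, 1.37 and 1.43 CPM in *set-2(zr2012)*, against 4.74, 3.95 and 2.81 CPM in N2 (log2 fold change -1.52, SE 0.26, edgeR adjusted p = 0.0219). In both of them no mutant library reached the lowest N2 library. *nhr-206* had 3.13, 3.28 and 3.52 CPM in *set-2(zr2012)*, against 10, 8.17 and 5.88 CPM in N2 (log2 fold change -1.27, SE 0.24, edgeR adjusted p = 0.0269), and *nhr-208* 3.48, 2.89 and 2.93 CPM in *set-2(zr2012)*, against 8.50, 7.87 and 5.78 CPM in N2 (log2 fold change -1.25, SE 0.22, edgeR adjusted p = 0.0224). *nhr-220*, a pseudogene in RefSeq, had 0.773, 1.01 and 1.10 CPM in *set-2(zr2012)*, against 2.39, 2.43 and 2.50 CPM in N2 (log2 fold change -1.34, SE 0.22, edgeR adjusted p = 0.0208). The same order, every mutant library below every N2 library, held for these 3. Each of these 6 calls was kept only in the fit without N2 replicate 3, and their adjusted p-values otherwise reached up to 0.173.

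Further members that were called are given here, chosen after their values were seen. *nhr-1* fell in *set-2(tm1630)*, with 42.4, 36.2 and 47.5 CPM in *set-2(tm1630)*, against 122, 172 and 88.7 CPM in N2 (log2 fold change -1.60, SE 0.33, edgeR adjusted p = 0.0131), and did not pass in *set-2(zr2012)* (log2 fold change -0.33, SE 0.13, edgeR adjusted p = 0.152). *nhr-53* had 14.6, 15.9 and 17.9 CPM in *set-2(tm1630)*, against 49.9, 53.5 and 33.3 CPM in N2 (log2 fold change -1.50, SE 0.30, edgeR adjusted p = 0.0125), and *nhr-119* 30.2, 27.2 and 27.0 CPM in *set-2(tm1630)*, against 61.0, 53.5 and 66.5 CPM in N2 (log2 fold change -1.10, SE 0.26, edgeR adjusted p = 0.0190). In these 3 no mutant library reached the lowest N2 library, and each call lapsed when any 1 of the mutant libraries was left out (highest adjusted p = 0.0820, 0.0887 and 0.109). In *set-2(zr2012)* *nhr-3* and *nhr-20* fell. *nhr-3* had 149, 113 and 141 CPM in *set-2(zr2012)*, against 309, 314 and 181 CPM in N2 (log2 fold change -0.995, SE 0.23, edgeR adjusted p = 0.0456), and *nhr-20* 58.2, 56.6 and 55 CPM in *set-2(zr2012)*, against 93.5, 94.7 and 87.7 CPM in N2 (log2 fold change -0.70, SE 0.092, edgeR adjusted p = 0.0119), with no overlap in either gene. Both calls were kept only without N2 replicate 3 (highest adjusted p = 0.190 and 0.104). *nhr-194*, a pseudogene in RefSeq, had 11.8, 11.6 and 11 CPM in *set-2(zr2012)*, against 24.8, 23.1 and 25.4 CPM in N2 (log2 fold change -1.09, SE 0.12, edgeR adjusted p = 0.00826) and kept its call in 2 of 6 fits, those without N2 replicate 2 or 3.

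8 members passed the test in both alleles, of 189 tested in both. *nhr-4*, *nhr-37*, *nhr-186* and *nhr-238* fell in both, 0 rose in both, *nhr-41*, *nhr-88* and *nhr-126* fell in *set-2(tm1630)* and rose in *set-2(zr2012)*, and *nhr-67* did the reverse. The share of all genes called in both was not computed, so these counts have no background. Called or not, 69.8% of the 189 members had the same sign in both alleles, against 55.9% of all 15637 genes tested in both. However, 156 of 193 members tested lay below 0 in *set-2(tm1630)* and 153 of 201 in *set-2(zr2012)*. Such a lean raises the share with the same sign even where single genes do not agree. The share therefore does not measure agreement gene by gene. *nhr-37* had 0.666, 1.08 and 0.921 CPM in *set-2(tm1630)*, against 3.44, 4.21 and 1.85 CPM in N2 (log2 fold change -1.84, SE 0.49, edgeR adjusted p = 0.0261), and 1.25, 0.975 and 1.54 CPM in *set-2(zr2012)*, against 5.21, 4.82 and 3.98 CPM in N2 (log2 fold change -1.90, SE 0.25, edgeR adjusted p = 0.0120). *nhr-4* had 42.1, 32.7 and 42.1 CPM in *set-2(tm1630)*, against 62.8, 99.8 and 85.9 CPM in N2 (log2 fold change -1.09, SE 0.29, edgeR adjusted p = 0.0282), and 65.4, 60.5 and 53.3 CPM in *set-2(zr2012)*, against 97.7, 96.1 and 80.6 CPM in N2 (log2 fold change -0.61, SE 0.13, edgeR adjusted p = 0.0345). In neither gene did the groups overlap in either experiment. *nhr-186* had log2 fold changes of -1.79 (SE 0.47, edgeR adjusted p = 0.0253) in *set-2(tm1630)* and -1.09 (SE 0.26, edgeR adjusted p = 0.0471) in *set-2(zr2012)*, *nhr-238* of -1.56 (SE 0.45, edgeR adjusted p = 0.0341) and -0.98 (SE 0.16, edgeR adjusted p = 0.0201). In *set-2(tm1630)* each of these 4 kept the call in 2 of 6 fits with a library left out, and in *set-2(zr2012)* in 1.

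*nhr-88* had 14.1, 11.9 and 14.2 CPM in *set-2(tm1630)*, against 35.0, 33.3 and 49.8 CPM in N2 (log2 fold change -1.55, SE 0.30, edgeR adjusted p = 0.0111). In experiment 2 it had 56.8, 51.2 and 55.1 CPM in *set-2(zr2012)*, against 35.9, 34.0 and 38 CPM in N2 (log2 fold change 0.60, SE 0.10, edgeR adjusted p = 0.0232). The mutants of this gene lay on opposite sides of the N2 libraries of their own experiments. *nhr-126* had 18.3, 21.5 and 21.7 CPM in *set-2(tm1630)*, against 28.9, 45.9 and 42.1 CPM in N2 (log2 fold change -0.93, SE 0.30, edgeR adjusted p = 0.0468), and 51.3, 51.7 and 54.3 CPM in *set-2(zr2012)*, against 36.8, 33.8 and 40.1 CPM in N2 (log2 fold change 0.51, SE 0.11, edgeR adjusted p = 0.0371), with the same split. In *set-2(tm1630)* *nhr-88* kept its call in 3 of 6 fits with a library left out and *nhr-126* in 2 (highest adjusted p = 0.0711 and 0.204), and in *set-2(zr2012)* each kept it in 1.

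An interaction term, fitted to the 12 libraries together, tested whether an NHR gene changed differently in the alleles. Of 209 members tested, the change was higher in *set-2(tm1630)* for 11, where 11.8% of all 17903 genes were, and lower for 26, where 11.7% were. The share of members lower was thus close to that of all genes, and the share higher was below it. The median difference was -0.28 for the members and -0.17 for all genes. The smallest p-values were those of *nhr-88* with a difference of -2.13 (SE 0.30, edgeR adjusted p = 0.00196), *nhr-67* with 2.07 (SE 0.32, edgeR adjusted p = 0.00271), *nhr-154* with 1.82 (SE 0.32, edgeR adjusted p = 0.00380) and *nhr-41* with -2.85 (SE 0.52, edgeR adjusted p = 0.00444). *nhr-38* and *nhr-101* followed, with 4.23 (SE 0.85, edgeR adjusted p = 0.00634) and -1.76 (SE 0.36, edgeR adjusted p = 0.00669). *nhr-2* had the largest difference among the receptors named here, 5.48 (SE 1.35, edgeR adjusted p = 0.0144). N2 replicate 3 of experiment 2 enters it, and without that library the *set-2(zr2012)* change is 0.77. The 4 genes lower in both alleles had differences with adjusted p-values of 0.309 to 0.936. Each allele has its own N2 and experiment, so allele and experiment cannot be told apart in these differences. Between 18 and 63 members were called with 1 library left out, where between 7.12 and 19.9% of all genes were higher and between 5.63 and 21.2% lower.

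**Figure D4:**
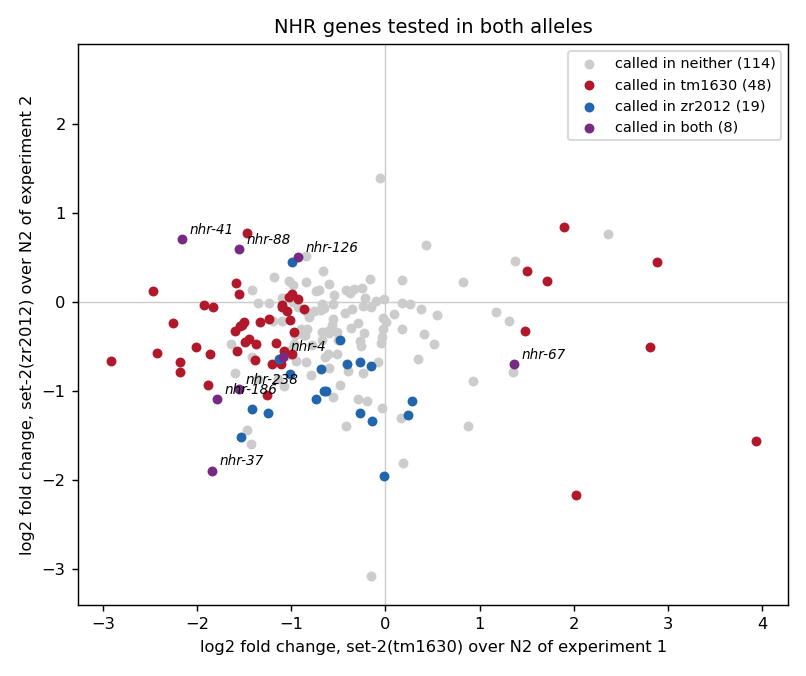
Log2 fold change in *set-2(tm1630)* over N2 of experiment 1 (x axis) and in *set-2(zr2012)* over N2 of experiment 2 (y axis) for the 189 NHR genes tested in both, coloured by the calls. 123 genes lie below 0 on both axes and 9 above 0 on both, and *nhr-41*, *nhr-88* and *nhr-126* lie at the upper left, opposite *nhr-67*. The sign was the same in both alleles for 69.8% of these genes, against 55.9% of all 15637 genes tested in both. The lean of the members below 0 in each allele raises this share, so it does not measure agreement gene by gene.

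NHR genes often stand next to each other in RefSeq's order of protein-coding genes. In that order 130 of 264 placed members stood in 42 runs of 2 or more neighbours, the longest of 9. Pseudogenes and non-coding genes were left out of it and can lie between neighbours. The 8 runs of 5 or more, chosen after values were seen, held 52 members. In *set-2(tm1630)* 15 of 45 tested in them fell (33.3%, against 24.4% of all tested NHR genes and 16% of all genes) and 1 rose (2.22%), and in *set-2(zr2012)* 5 of 48 fell (10.4%, against 11.4 and 4.74%) and 2 rose (4.17%). In the run of *nhr-123*, *nhr-98*, *nhr-203*, *nhr-202* and *nhr-201*, 5 of 5 fell in *set-2(tm1630)* (log2 fold changes of -1.92 to -0.996) and 0 passed in *set-2(zr2012)* (-0.65 to 0.09, 2 at an unadjusted p under 0.05 with edgeR, 1 called by DESeq2). *nhr-201* had 11, 14.5 and 12.4 CPM in *set-2(tm1630)*, against 38.6, 70.7 and 34.0 CPM in N2 (log2 fold change -1.92, SE 0.37, edgeR adjusted p = 0.0107), with no overlap. The 5 calls were kept in 2 or 3 of 6 fits with a library left out (highest adjusted p = 0.162, for *nhr-203*). The run of *nhr-161* to *nhr-42* had 0 of 7 called in either allele (2 at an unadjusted p under 0.05 with edgeR, 1 called by DESeq2 in *set-2(tm1630)*, and 1 at an unadjusted p under 0.05 with edgeR, 0 called by DESeq2 in *set-2(zr2012)*). In the run of *nhr-206* to *nhr-136* neighbours moved apart in *set-2(tm1630)*, where *nhr-154* rose and *nhr-136* fell (log2 fold change -1.33, SE 0.33, edgeR adjusted p = 0.0209), a call kept in 3 of 6 fits with a library left out (highest adjusted p = 0.116). Neighbouring members can be close paralogs that share reads, and how such reads were assigned is not given in the sources used here, so single members of a run are uncertain.

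**Figure D5:**
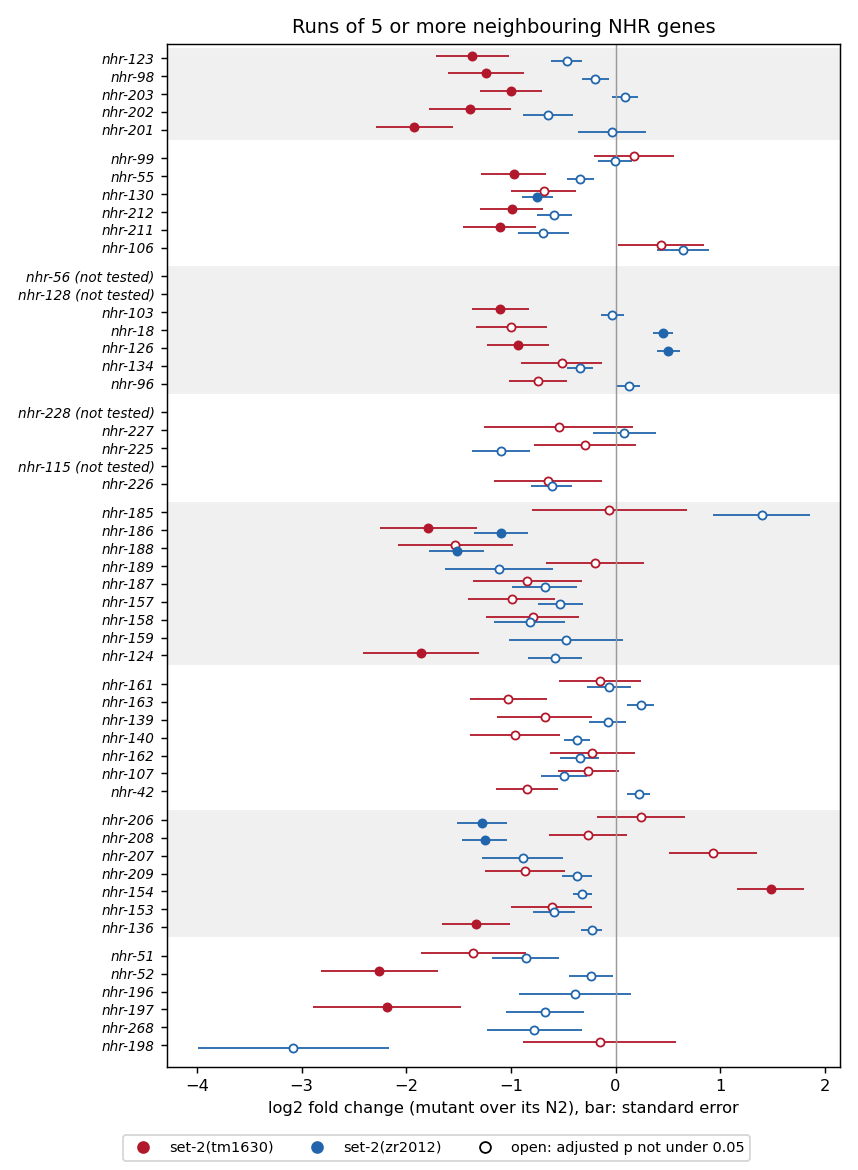
Log2 fold change, mutant over its N2, with its SE (bars) for the members of the 8 runs of 5 or more neighbouring NHR genes, in RefSeq gene order from top to bottom, *set-2(tm1630)* in red and *set-2(zr2012)* in blue, open where the adjusted p was not under 0.05. All 5 genes of the top run lie at or below -0.996 in *set-2(tm1630)*.

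Of 5 nuclear receptors with other names, 4 were tested and *daf-12*, the dafachronic acid receptor, was at 0. *fax-1*, which acts in interneuron identity and axon pathfinding, fell in both alleles. It had 6.37, 7.76 and 9.50 CPM in *set-2(tm1630)*, against 24.6, 46.0 and 21.3 CPM in N2 (log2 fold change -1.96, SE 0.40, edgeR adjusted p = 0.0125), and 25.2, 23.8 and 20.4 CPM in *set-2(zr2012)*, against 33.2, 35.6 and 42.2 CPM in N2 (log2 fold change -0.68, SE 0.15, edgeR adjusted p = 0.0371), and the groups did not overlap in either experiment. The call held in 3 of 6 fits with a library left out in *set-2(tm1630)* (all but those without a mutant library) and in 1 of 6 in *set-2(zr2012)* (that without N2 replicate 3), with adjusted p-values up to 0.0809 and 0.171. *sex-1*, an X-chromosome signal element, had 186, 116 and 167 CPM in *set-2(tm1630)*, against 19.3, 14.6 and 109.7 CPM in N2, and did not pass (log2 fold change 1.71, SE 0.73, edgeR adjusted p = 0.107). *odr-7* (log2 fold change -1.54, SE 0.56, edgeR adjusted p = 0.0693) and *unc-55* (1.52, SE 0.66, edgeR adjusted p = 0.112) did not pass in *set-2(tm1630)* either, nor in *set-2(zr2012)*. Among genes for ligands and co-regulators, 1 of 5 tested rose and 1 fell in *set-2(tm1630)*, and 0 of 6 passed in *set-2(zr2012)* (1 at an unadjusted p under 0.05 with edgeR, 1 called by DESeq2). *smo-1*, the SUMO gene, had 404, 371 and 407 CPM in *set-2(tm1630)*, against 108, 74.9 and 118.8 CPM in N2 (log2 fold change 1.97, SE 0.32, edgeR adjusted p = 0.00715), with no overlap and the call kept in 6 of 6 fits with a library left out. *dhs-16*, a dehydrogenase of dafachronic acid synthesis, had 10.1, 19.3 and 15.6 CPM in *set-2(tm1630)*, against 25.4, 71.3 and 31.0 CPM in N2 (log2 fold change -1.51, SE 0.47, edgeR adjusted p = 0.0419), a call kept in 2 of 6 such fits (highest adjusted p = 0.165). *mdt-15*, the Mediator subunit that works with NHR-49, had a log2 fold change of -0.55 (SE 0.32, edgeR adjusted p = 0.212) in *set-2(tm1630)* and 0.31 (SE 0.14, edgeR adjusted p = 0.175) in *set-2(zr2012)*.

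Among genes known as targets of NHR-49, NHR-80, NHR-10 or NHR-68, 2 of 4 tested fell in *set-2(tm1630)*, where 16% of all genes fell. In *set-2(zr2012)* 0 passed (1 at an unadjusted p under 0.05 with edgeR, 1 called by DESeq2). *fat-7* (log2 fold change -0.11, SE 0.81, edgeR adjusted p = 0.930) and *fmo-2* (-1.74, SE 0.86, edgeR adjusted p = 0.153) did not pass in *set-2(tm1630)*, and their groups overlapped. *acs-2*, an acyl-CoA synthetase of fatty acid oxidation, had 5.30, 5.80 and 4.75 CPM in *set-2(tm1630)*, against 49.4, 22.7 and 82.7 CPM in N2 (log2 fold change -3.29, SE 0.49, edgeR adjusted p = 0.00571), and 6 of 6 fits with a library left out kept the call. In experiment 2 it had 31.6, 33.4 and 28.1 CPM in *set-2(zr2012)*, against 20.5, 21.9 and 14.2 CPM in N2 (log2 fold change 0.72, SE 0.19, edgeR adjusted p = 0.0617), so that the groups did not overlap but the difference did not pass. *fat-5*, a palmitoyl-CoA desaturase, had 1.71, 3.85 and 2.33 CPM in *set-2(tm1630)*, against 5.68, 11 and 5.64 CPM in N2 (log2 fold change -1.51, SE 0.48, edgeR adjusted p = 0.0453), a call kept in 2 of 6 such fits (highest adjusted p = 0.196). *fat-6* and *acdh-1* were listed at 0.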

How the data were processed

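RNA was extracted from whole embryos with the Arcturus PicoPure kit and libraries were made with TruSeq v2, per the labels. The authors mapped reads to WS220 (ce10) allowing 2 mismatches and deposited raw counts per gene. The submitters' processing notes list Trimmomatic 0.36.0, HTSeq 0.9.1 and DESeq2 2.1.8.3 without stating their roles. Strand use and the handling of multi-mapping reads are not given in the sources used here. The title decided the group of *set-2(tm1630)* replicate 3, since its description repeats the name of replicate 1.

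Members were taken by gene name. Names, transcript numbers and gene order came from RefSeq's annotation, which matched 274 of the 276 members, 10 of them as pseudogenes. It is of another build than the files, so no coordinates are given. The software was edgeR 4.0.16, DESeq2 1.42.0 and limma 3.58.1, under R 4.3.3. A gene was kept when 3 or more of the 6 libraries reached 10 counts, TMM factors were computed over all genes, and edgeR's quasi-likelihood test (two-sided) was run for each allele against the N2 of its experiment, with Benjamini-Hochberg adjustment over all genes and a threshold of 0.05. SE is the size of the log2 fold change divided by the square root of F. CPM is TMM-normalized. The interaction used all 12 libraries.

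Alternatives changed the size factors (DESeq2), the test (DESeq2 Wald), the filter (none, or 10 counts required of every library), the model (a block for the replicate number, or a joint fit of the 12 libraries) or the libraries (each left out). Counts of calls differing by no more than 1.5 times were treated as the same. Receptors named in the text are those of the role lists, for each allele the 6 higher and 6 lower members with the largest change (adjusted p under 0.05, an average of 20 counts or more, no overlap of groups), those called in both alleles, and the 6 with the smallest interaction p. *nhr-1*, *nhr-3*, *nhr-20*, *nhr-53*, *nhr-83*, *nhr-119*, *nhr-144*, *nhr-169*, *nhr-194*, *nhr-255*, *nhr-262* and the neighbours in runs were named after their values were seen. The names hphd-1, unc-33 and vit-3 found no match in the tables and were not analysed here. A planned part of the rule, by level per length, was not applied because no gene lengths of the files' build were at hand, so levels are not compared between genes. The members and lists were chosen with earlier results of these data known. Replicates came from independent experiments by the study's methods, and p-values measure only the spread between these libraries. No molecular identifiers were used, so reads are not independent molecules.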

Additional observations from a re-analysis of the deposited data

Results flagged for a closer look

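For 29 of the genes named, the change differed between the alleles in the interaction test over 12 libraries (edgeR, adjusted p under 0.05 over all genes). Of all 17903 genes tested, 11.8% were higher and 11.7% lower in *set-2(tm1630)*, and 37 of 209 NHR genes were called. Some genes were named because of a small interaction p, so this list gives no share for the family. The values are the log2 change in *set-2(tm1630)* minus that in *set-2(zr2012)*. The change was higher in *set-2(tm1630)* for *nhr-67* (2.07), *nhr-154* (1.82), *nhr-38* (4.23), *smo-1* (2.52), *nhr-2* (5.48), *nhr-255* (3.35), *nhr-165* (2.43) and *nhr-206* (1.54). Of these, *nhr-255* met the count filter of experiment 1 only through the *set-2(tm1630)* libraries, where it was high. It was lower in *set-2(tm1630)* for *acs-2* (-3.99), *nhr-88* (-2.13), *nhr-41* (-2.85), *nhr-101* (-1.76), *nhr-126* (-1.42), *nhr-270* (-2.59), *nhr-91* (-2.23), *nhr-62* (-1.84), *nhr-119* (-1.03), *myo-3* (-1.79), *nhr-18* (-1.43), *nhr-201* (-1.88), *nhr-53* (-1.25), *dhs-16* (-1.93), *nhr-1* (-1.25), *unc-54* (-1.53), *nhr-203* (-1.08), *nhr-42* (-1.05), *nhr-52* (-1.99), *nhr-136* (-1.09) and *fax-1* (-1.27). For *nhr-2*, the log2 fold change in *set-2(zr2012)* was -1.56 with all libraries and 0.77 without N2 replicate 3 of experiment 2. The experiments used their own N2 libraries, so allele and experiment cannot be told apart.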

How the results depend on the processing

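In *set-2(tm1630)*, 18 of 241 members tested were called higher without a count filter, where 8.82% of all genes were. The strict filter (10 counts in every library) called 6 of 170 higher, where 13.7% of all genes were. The joint fit of 12 libraries called 20 of 209 higher and 91 lower, where 19.4 and 26.0% of all genes were. In *set-2(zr2012)*, the DESeq2 Wald test called 7 of 201 higher and 45 lower, where 9.63 and 9.62% of all genes were. The joint fit called 0 of 209 higher and 1 lower (*nhr-37*), where 0.989 and 0.397% of all genes were, and the strict filter moved the median to -0.28. The interaction called 24 of 243 without a filter, where 6.87% of all genes were higher and 6.05% lower. A block for the replicate number left 14 of 193 NHR genes lower in *set-2(tm1630)* and 11 higher, where 8.85 and 12.4% of all genes were. With the block, the share of NHR genes called lower was thus below that of all genes. In *set-2(zr2012)* it left 0 higher and 0 lower (edgeR, 58 at an unadjusted p under 0.05), where 0.237 and 0% of all genes were. In the interaction it left 15 NHR genes, where 6.26% of all genes were higher and 4.12% lower. Whether the replicate numbers pair the samples cannot be settled from 3 pairs per experiment. The paper states that mutant and wild-type samples were handled in parallel. Over the 16332 and 16892 genes tested, same-numbered libraries had a mean correlation of -0.17 in each experiment, and 1 of the 6 pairs had a correlation above 0 (0.11). Libraries of different number had means of 0.090 and 0.096. These values concern how libraries depart from their group, not the levels themselves. They do not show that mutant and N2 profiles run opposite. Departures cancel within a group, so such means tend to take opposite signs. No mutant library correlated best with the N2 library of its own number. With 1 library left out, counts in *set-2(tm1630)* ran from 1 to 19 higher and 0 to 75 lower, in *set-2(zr2012)* from 0 to 19 higher and 0 to 101 lower (median -0.37 to -0.29), and in the interaction from 18 to 63. Shares of all genes moved in the same fits, in *set-2(tm1630)* between 3.86 and 23.5% higher and 0.889 and 26.3% lower, and in *set-2(zr2012)* between 0.175 and 30.7% higher and 0 and 32.5% lower. Each of these fits held fewer libraries, and the cause of the changes was not tested. No named call changed sign. Named genes not called did so. In *set-2(tm1630)* these were *nhr-13* 0.061, *nhr-64* 0.049 and *nhr-80* 0.042 with DESeq2 size factors, *nhr-13* 0.063, *nhr-64* 0.049 and *nhr-80* 0.041 with the Wald test, *nhr-10* -0.095 without a filter, *nhr-64* 0.032 and *nhr-80* 0.024 with the strict filter, *nhr-64* 0.031 and *nhr-80* 0.17 with the block, and *nhr-10* -0.011 in the joint fit, and in *set-2(zr2012)* *nhr-201* 0.0015 with the strict filter and *nhr-201* 0.069 with the block. With 1 library left out these were, in *set-2(tm1630)*, *nhr-10* (-0.15 to 0.13), *nhr-13* (-0.33 to 0.25), *nhr-20* (-0.61 to 0.034), *nhr-206* (-0.068 to 0.60), *nhr-220* (-0.39 to 0.32), *nhr-239* (-0.61 to 0.21), *nhr-64* (-0.21 to 0.25), *nhr-80* (-0.31 to 0.66) and *nhr-86* (-0.44 to 0.18), and in *set-2(zr2012)*, *fat-5* (-0.65 to 0.083), *nhr-101* (-0.12 to 0.017), *nhr-111* (-0.98 to 0.0083), *nhr-119* (-0.094 to 0.0052), *nhr-2* (-2.05 to 0.77), *nhr-201* (-0.26 to 0.43), *nhr-239* (-0.048 to 0.31), *nhr-270* (-0.037 to 0.44), *nhr-48* (-0.011 to 0.13), *nhr-64* (-0.033 to 0.10), *nhr-8* (-0.21 to 0.19), *set-2* (-0.14 to 0.26), *sex-1* (-0.83 to 0.16) and *smo-1* (-0.79 to 0.15). Depth limits members under 10 counts, which were not tested.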

Other observations

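Within *set-2(tm1630)*, members with 2 or more RefSeq transcripts were called lower in 19 of 59 cases (32.2%, all such genes 22.4%), and those with 1 transcript in 25 of 127 (19.7%, all such genes 15.5%). 10 members are pseudogenes in RefSeq. Of these *nhr-215*, *nhr-250*, *nhr-266* and *nhr-278* were tested in neither allele, and *nhr-75* only in *set-2(zr2012)*. Among those tested, *nhr-83*, *nhr-144* and *nhr-287* fell in *set-2(tm1630)* and *nhr-194* and *nhr-220* fell in *set-2(zr2012)*. Of all genes tested 16% fell in *set-2(tm1630)* and 4.74% in *set-2(zr2012)*. *nhr-83* and *nhr-144* each kept the call in 2 of 6 fits with a library left out (highest adjusted p = 0.178 and 0.196). Replicates of the mutants were closer to each other than those of N2. The median SD of members' log2 CPM was 0.181 in *set-2(tm1630)* and 0.472 in its N2, and 0.118 in *set-2(zr2012)* and 0.231 in its N2 (pseudocount 0.5 CPM, n = 3 each). All genes tested showed the same order, with 0.204 and 0.564 in experiment 1 and 0.117 and 0.296 in experiment 2. The difference in spread was thus not particular to NHR genes.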
